A study of Arabidopsis thaliana with 4 samples.

Results

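The mitochondria-encoded loci are the 94 loci, of 30361 on the array, whose code begins with ATMG, the prefix given to genes of the Arabidopsis thaliana mitochondrial genome. All 94 had a value on every array. RNA of whole wild-type Col-0 plants, the common laboratory accession of Arabidopsis, was hybridised to 4 one-colour NimbleGen arrays. On 1 array the plants had been kept for 30 min with the solvent acetonitrile, and on 3 arrays, labelled as biological replicates, for 30 min with (E)-2-hexenal, a reactive aldehyde of wounded leaves given as vapour and stated as 10 µM. Per the treatment protocol, the plants were enclosed in a lit 340 cm3 box at 25 °C, and at least 6 plants went into each RNA. The plant age is not given in the sources used here, and the single control gives no spread between control samples.

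Plant mitochondria keep a small genome of their own. It holds genes for a part of the respiratory chain and the ATP synthase, for some ribosomal proteins and for the maturation of cytochrome c, together with many open reading frames of no known function, while most mitochondrial proteins are encoded in the nucleus. The gene table used for names, RefSeq's for TAIR10.1, lists 33 protein-coding entries for this genome. Of these, 9 are nad genes of complex I, 1 is cob of complex III, 3 are cox genes of complex IV, 6 are atp entries of the ATP synthase, 7 are rpl and rps genes of the ribosome, 5 are ccm genes of cytochrome c maturation, and the other two are matR, a maturase gene, and mttB, a transporter gene. The table pairs none of these entries with an ATMG code (0 of 94 codes matched). The members are therefore given by code, and named respiratory, ribosomal and cytochrome c maturation genes were not set against the open reading frames here. In plant organelles a poly(A) tail marks RNA for decay, unlike the stable tails of nuclear mRNA. Reverse transcription here started from oligo-dT, so the share of mitochondrial RNA that was copied is unknown.

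The hybridised tissue carried the RNA of green plants. The 4 leaf markers, the Rubisco genes RBCS1A and RBCS3B and the light-harvesting genes CAB3 and LHCB2.1, had log2 levels between 15.00 and 15.78 on every array. Median intensities of the 4 arrays, as deposited, lay between 936 and 982. How precise any value below can be depends on the number of arrays. All log2 levels and differences are of quantile-normalized intensities.

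Mitochondria-encoded loci were lower on the hexenal arrays than on the control array, and by very different amounts on the 3 arrays. The median of the 94 log2 differences from the control was -1.05 on hexenal array 1, -0.47 on array 2 and -0.22 on array 3, that is 48.4%, 72.2% and 85.8% of the control level. Over all 30361 loci the medians were -0.017, -0.029 and -0.036. On array 1, 93 of the 94 members lay below the control, against 83 on array 2 and 89 on array 3. The same counts over all loci are not given here. A member was below the control on all 3 hexenal arrays in 80 of 94 cases (85.1%), against 32.4% of all loci, and above it on all 3 in 0 of 94, against 26.1%. The mean of the 3 hexenal arrays was at least 1.5-fold below the control in 43 of 94 members, against 11.5% of all loci. In RNA of whole plants, fewer cells of a type and less RNA per cell cannot be told apart.

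**Figure D1:**
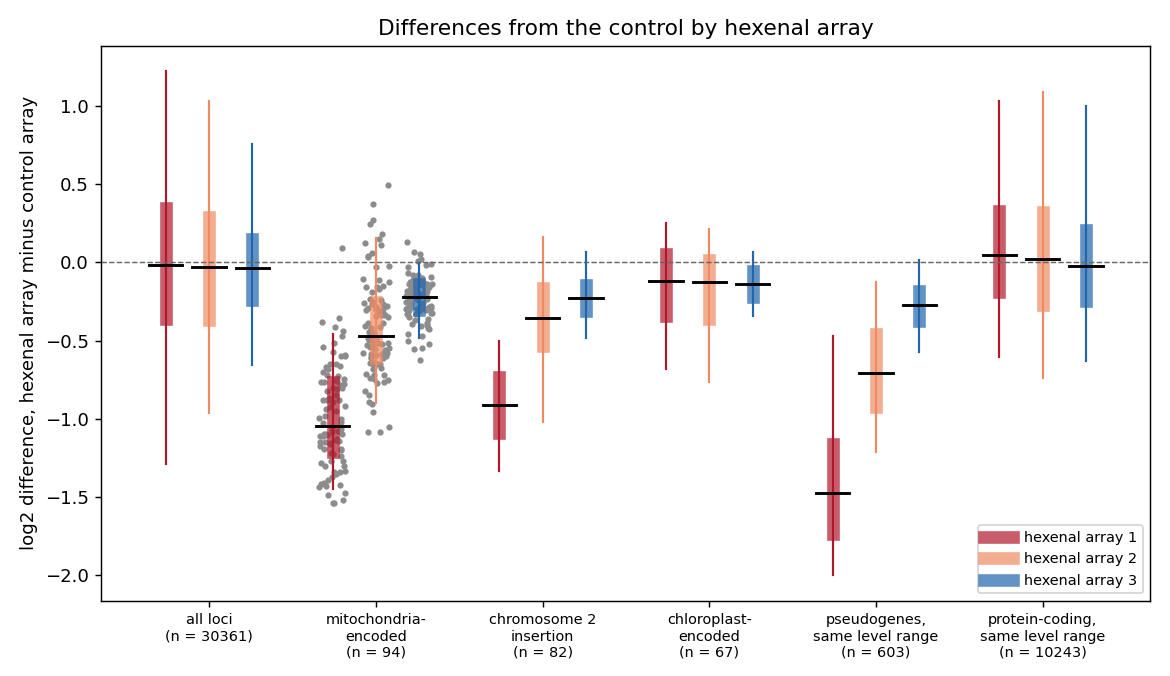
Log2 difference of each hexenal array from the control array for 6 groups of loci. Thick bars span the middle 50% of the loci, thin lines the 5th to the 95th percentile and black lines the median; grey points are the 94 mitochondria-encoded loci, whose medians run from -1.05 on array 1 to -0.22 on array 3.

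No member was called. Across the whole table, limma with Benjamini-Hochberg adjustment called 0 of 94 members at an adjusted p under 0.05 with at least a 2-fold change, where 0.899% of all loci were called, 0.866% higher and 0.0329% lower. The count of members at an unadjusted p under 0.05 was also 0, where 8.75% of all loci had one (2.91% lower). With eBayes run with trend and robust it was 15 of 94, against 9.08% of all loci. The lowest unadjusted p of a member was 0.058 and the lowest adjusted p was 0.592. These p values take their spread from the hexenal arrays, and assume the same spread for the single control. The members varied more between those arrays than a typical locus: their median SD was 0.44 on the log2 scale, against 0.24 over all loci, and 82 of 94 lay above the latter. For 67 of 94 members the mean difference was larger than the SD (56.1% of all loci).

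Hexenal array 1 carried much of the difference. Its signal was the lowest of the 4 arrays for 87 of 94 members, a count not given here over all loci. The control was the highest for 80, against 32.4% of all loci. A difference of at least 2-fold below the control was present in 50 members on array 1 (8.48% of all loci), in 3 on array 2 (4.37%) and in 0 on array 3 (1.7%). The median of the members' mean differences was -0.57, and it was -0.36 without hexenal replicate 1. The hexenal arrays can also be set against each other without the control. Array 1 lay below array 3 in 90 of 94 members, with a median difference of -0.82, and array 2 lay below array 3 in 71, with a median difference of -0.20. Over all 30361 loci, array 1 lay below array 3 in 14778 and array 2 below array 3 in 14998. The medians there were 0.014 and 0.0056.

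In deposited intensities the 94 members ran from 1842 to 20522 on the control array, with a median of 7787. They ran from 1165 to 14808 on hexenal array 1 with a median of 4208, from 1460 to 18826 on array 2 with a median of 6062, and from 1906 to 17369 on array 3 with a median of 6864. No member lay in the dimmest 25% of loci, nor below the median level of all loci.

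The 5 members with the lowest mean differences all had the same order of arrays. ATMG01220 had a log2 level of 13.02 on the control array and of 11.50, 12.07 and 12.70 on hexenal arrays 1, 2 and 3. Its mean difference was -0.94 ± 0.48 (SE, adjusted p = 0.658 by limma). ATMG00690 had 12.72 on the control array and 11.18, 11.89 and 12.39 on the hexenal arrays, a mean difference of -0.89 ± 0.49 (SE, adjusted p = 0.669 by limma). In both loci all 3 hexenal arrays lay below the control, and array 3 came nearest to it. ATMG01210, ATMG00150 and ATMG01200 followed, with mean differences of -0.87 ± 0.42, -0.86 ± 0.42 and -0.84 ± 0.42 (SE). On array 1 these were at -1.24, -1.39 and -1.30, on array 2 at -1.09, -0.77 and -0.91, and on array 3 at -0.29, -0.40 and -0.32. Without hexenal replicate 1 the mean differences of the 5 loci ran from -0.69 (ATMG01210) to -0.57 (ATMG00690). None of the 5 loci passed the threshold.

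At the other end were 5 members, also with all 3 arrays on one side. Except in ATMG00280, the differences were within the size of their standard errors or little above. ATMG01000 was at 12.10 on the control array and at 11.45, 12.07 and 11.94 on the hexenal arrays, a mean difference of -0.28 ± 0.33 (SE). ATMG00840, ATMG01020, ATMG00280 and ATMG00516 had mean differences of -0.28 ± 0.26, -0.31 ± 0.29, -0.33 ± 0.24 and -0.35 ± 0.31 (SE). Without hexenal replicate 1 the mean difference was -0.093 for ATMG01000, -0.16 for ATMG01020, and -0.19 for ATMG00840 and ATMG00516. That of ATMG00280 was -0.32. The remaining 14 members had arrays on both sides of the control, 11 with 2 of 3 arrays below it and 3 with 1 of 3. Among these, ATMG00830 had the one mean above the control. It was singled out after its values were seen. It was at 12.75 in the control and at 12.84, 13.25 and 12.55 on the hexenal arrays, a mean difference of 0.13 ± 0.34 (SE), which was -0.055 without hexenal replicate 2.

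**Figure D2:**
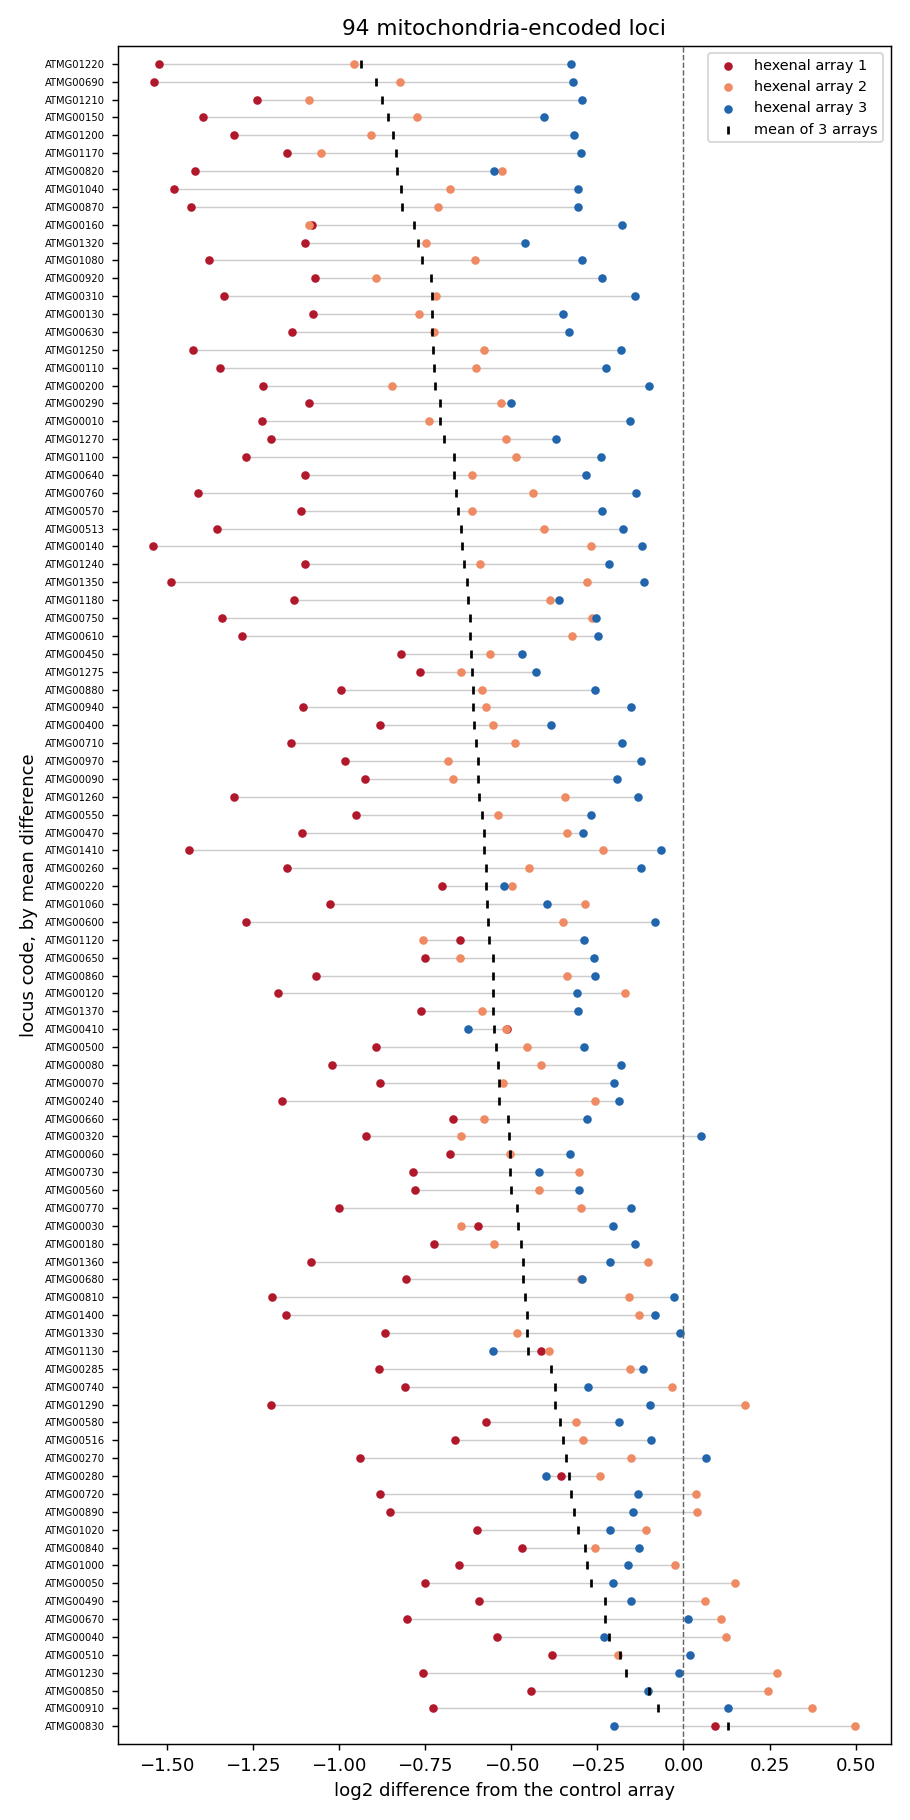
Log2 difference from the control array of every mitochondria-encoded locus, ordered by mean difference; coloured points are the 3 hexenal arrays and black ticks their mean. Array 1 is the lowest of the 4 arrays for 87 of the 94 loci, and 93 means lie below 0. The same counts over all loci are not given here.

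The members differed in how evenly the arrays moved. A group of 4 loci, chosen after the values were seen by an SD under 0.15 over the hexenal arrays, had nearly the same difference on each of them. ATMG00410 had a log2 level of 12.80 on the control array and of 12.28, 12.28 and 12.17 on hexenal arrays 1, 2 and 3, a mean difference of -0.55 ± 0.23 (SE, adjusted p = 0.599 by limma). ATMG00220 had 13.41 on the control array and 12.71, 12.91 and 12.89 on the hexenal arrays, a mean difference of -0.57 ± 0.24 (SE, adjusted p = 0.599 by limma). That the hexenal arrays lay close together in these loci follows from that choice. Each of the arrays lay below the control. ATMG01130 was at -0.41, -0.39 and -0.55 on arrays 1, 2 and 3 against the control, and ATMG00280 at -0.35, -0.24 and -0.40. Array 1 lay below array 3 in 1 of these 4 loci, ATMG00220.

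The loci with the widest spread showed the reverse. ATMG00140 had a log2 level of 12.87 on the control array and of 11.33, 12.60 and 12.75 on hexenal arrays 1, 2 and 3, with an SD of 0.78. ATMG01350 was at -1.49, -0.28 and -0.11 and ATMG01410 at -1.44, -0.23 and -0.065 against the control. In these 3 loci array 1 stood apart, while arrays 2 and 3 lay near the control. Codes next to each other in number were no closer in their mean difference than any pair: the median absolute difference was 0.178 over 93 neighbouring pairs and 0.180 over all 4371 pairs.

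**Figure D3:**
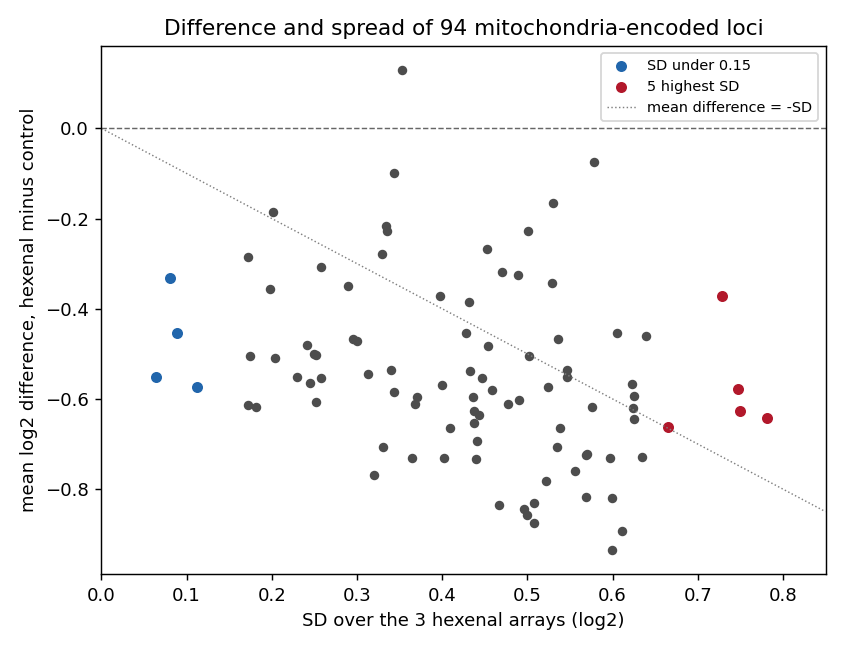
Mean log2 difference (hexenal minus control) against the SD over the 3 hexenal arrays for the 94 mitochondria-encoded loci. The 4 loci with an SD under 0.15 have means between -0.57 and -0.33; points under the dotted line differ from the control by more than their SD.

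Chloroplast-encoded loci, the genes of the other plant organelle with a genome, lay nearer to the control. The 67 loci with codes beginning ATCG had median differences of -0.12, -0.12 and -0.14 on hexenal arrays 1, 2 and 3, with no such gap between arrays. Below the control on all 3 arrays were 33 of 67 (49.3%), against 32.4% of all loci. Limma called 0 of 67, with 0 at an unadjusted p under 0.05. The median SD of these loci over the hexenal arrays was 0.14, against 0.44 in the mitochondria-encoded loci. The chloroplast-encoded loci were brighter, with a median log2 level of 14.77 on the control array against 12.94. The groups were not matched by level.

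Loci in a nuclear copy of mitochondrial DNA had values much like those of the mitochondrial loci. Chromosome 2 of Col-0 carries a large insertion of mitochondrial DNA, so its loci and the ATMG loci can be near-identical, and their probes may share targets. Probe sequences were not used here. The 102 loci of the code range AT2G07660 to AT2G07835 had median differences of -0.91, -0.34 and -0.21 on hexenal arrays 1, 2 and 3, and 80 lay below the control on all 3. The borders of the insertion were set by hand, after the values were seen, at loci in the gene order of the RefSeq table. Within them, 82 loci of the range had medians of -0.91, -0.36 and -0.22, and all 82 lay below the control on array 1. Of the rest of the range, 17 lay outside these borders and 3 had no RefSeq entry. Over the 3 arrays, 69 of the 82 (84.1%) lay below the control, against 32.4% of all loci, and 0 above, against 26.1%. Limma made 0 calls among them. An unadjusted p under 0.05 was present in 3 of the 82, all lower, which is near the 2.91% of all loci. AT2G07725 was at -0.80 ± 0.26, AT2G07727 at -0.84 ± 0.29 and AT2G07787 at -0.83 ± 0.30 (SE). ABCI4, annotated as ATP-binding cassette protein I4 of a family of transporters, was at -0.64 ± 0.28 and ABCI5, of the same family, at -0.33 ± 0.29 (SE). Signal of a mitochondria-encoded locus and of its nuclear copy cannot be told apart here.

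Pseudogenes of the nuclear genome showed the same gap between arrays. This comparison was added after the values were seen, when some pseudogenes beside the insertion were found to share it. The 13 pseudogenes of the code range outside the insertion had median differences of -0.95, -0.30 and -0.073 on hexenal arrays 1, 2 and 3. Of these, 7 (53.8%) lay below the control on all 3 arrays, against 32.4% of all loci. Another 3 (23.1%) lay above it on all 3, against 26.1%. Their median log2 level on the control array, over the 13, was 8.63, and 11 lay below the median level of all loci. The lowest mean difference of the code range was that of AT2G07789, one of the 13. It had a log2 level of 13.20 on the control array and of 11.39, 12.37 and 12.61 on hexenal arrays 1, 2 and 3. Across the nuclear genome outside that code range, 603 loci annotated as pseudogenes had a mean level between the lowest and the highest of the mitochondria-encoded loci (10.82 to 13.97). Their median differences were -1.47, -0.71 and -0.27 on hexenal arrays 1, 2 and 3, on each array further from 0 than those of the mitochondria-encoded loci. Below the control on all 3 arrays were 560 of 603 (92.9%). The 10243 protein-coding loci in the same range of levels had medians of 0.051, 0.023 and -0.022, and 28.4% lay below the control on all 3.

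The order of arrays was shared too. From lowest to highest, hexenal array 1, array 2, array 3 and the control followed each other in 65 of 94 mitochondria-encoded loci (69.1%), in 507 of the 603 pseudogenes (84.1%) and in 392 of the 10243 protein-coding loci (3.83%). Over all loci the share was 11.7%. Limma called 0 of the 603 pseudogenes, and 18 had an unadjusted p under 0.05, all lower, a share near the 2.91% of all loci that were lower at that p. The gap between arrays was small in dim pseudogenes. With all loci split into 4 equal bins by mean level, the 1287 pseudogenes of the dimmest bin had medians of -0.088, -0.016 and -0.012, while the 852 of the third bin were at -1.49, -0.71 and -0.27. The 5894 protein-coding loci of the dimmest bin had medians of -0.036, -0.0053 and -0.0037. A small gap there is therefore not particular to pseudogenes. The 28 transcribed pseudogenes in the members' range of levels had medians of 0.077, -0.105 and -0.069. By bin, the 329 transcribed pseudogenes of the dimmest were at -0.079, -0.051 and -0.029. The 185 of the second bin were at -0.48, -0.32 and -0.11, in the order of the other pseudogenes. The 53 of the third were at -0.061, -0.126 and -0.095, and the 17 of the brightest at -0.019, -0.209 and -0.087. Whether the mitochondria-encoded loci and the pseudogenes share a source of signal was not tested. Whether genomic DNA carried over with the RNA, in amounts that differ between arrays, has a part in either set of values was also not tested.

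**Figure D4:**
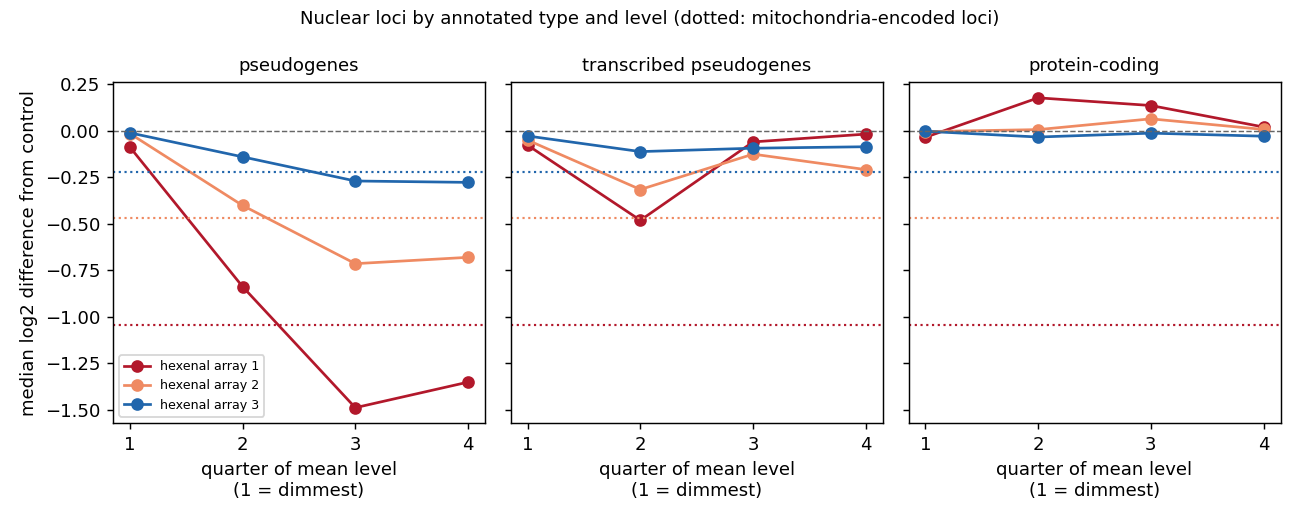
Median log2 difference from the control of nuclear pseudogenes, transcribed pseudogenes and protein-coding loci in 4 equal bins of mean level, for each hexenal array, with dotted lines at the medians of the mitochondria-encoded loci. In the third bin the pseudogenes are at -1.49 on array 1, and the protein-coding loci are at 0.13.

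Array 1 also stood apart in flower markers. Summed over AP1, AP3, PI, AG and SEP3, floral regulators whose control levels all lay in the dimmest 25% of loci, deposited intensities came to 364 in the control and to 753, 335 and 343 on hexenal arrays 1, 2 and 3. The markers were uneven on array 1: against the control, the log2 difference was 1.97 for AP1, 1.17 for AP3, 0.95 for SEP3, 0.86 for AG and 0.14 for PI. The 4 root markers PHT1;1, IRT1, MYB66 and CASP1, of which 3 were in the dimmest 25% on the control array, summed to 634 on the control array and to 441, 584 and 560 on the hexenal arrays. On array 1 the deposited intensity of PHT1;1 was 162 against 335 in the control and that of CASP1 87.8 against 143, while IRT1, at 128 against 100.1, and MYB66, at 64.1 against 55.9, lay above it. The leaf markers summed to 173367 on the control array and to 165122, 181884 and 164038. The part of these differences in the values of the mitochondria-encoded loci was not tested.

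Nuclear genes for respiration lay near the control. Of 31 codes listed for nuclear subunits of the respiratory chain, the ATP synthase and cytochrome c, the RefSeq table names 11 as such. These 11 had median differences of 0.10, 0.037 and -0.091 on hexenal arrays 1, 2 and 3, where the mitochondria-encoded loci were at -1.05, -0.47 and -0.22. Limma with Benjamini-Hochberg adjustment called 0 of 11, and 1 had an unadjusted p under 0.05, about the share of all loci that had one (8.75%). That locus was CYTC-2, a gene of cytochrome c, the electron carrier between complexes III and IV. In log2 levels it was at 9.51 in the control and at 10.96, 10.84 and 10.46 on the hexenal arrays, a mean difference of 1.25 ± 0.29 (SE, adjusted p = 0.236 by limma). All 3 hexenal arrays lay above the control.

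Of the other subunit genes, SDH2-2 and SDH2-1, iron-sulfur subunits of complex II, were at 0.25 ± 0.28 and -0.20 ± 0.24 (SE). Of 6 codes listed for RNA polymerases and exoribonucleases of the organelles, 2 carry a matching name. EMB2730, a gene of mitochondrial RNase II, was at -0.090 ± 0.25 (SE). RIF10, of a polynucleotide phosphorylase whose organelle is not given here, was at -0.0058 ± 0.24 (SE). The other 4 codes are not named as such in the table. They lay below the control on all 3 hexenal arrays, as did 32.4% of all loci. AT5G14580 was at -0.78 ± 0.33, AT5G15700 at -0.48 ± 0.32, AT1G68990 at -0.47 ± 0.29 and AT2G24120 at -0.31 ± 0.25 (SE). None of these genes passed the threshold.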

How the data were processed

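The authors deposited linear intensities, 1 for each of 30361 loci on each array. How background was corrected, arrays were normalized and probes were combined is not given in the sources used here. Per the labels' protocols, oligo-dT primed the cDNA and random nonamers the Cy3 labelling. Because the arrays' lower quartiles lay up to 0.20 apart in log2 (tolerance 0.1), log2 intensities were quantile normalized. Hexenal and control arrays were compared in limma 3.58.1 under R 4.3.3 (lmFit, eBayes with no trend, 2 residual degrees of freedom, two-sided). Adjustment was by Benjamini-Hochberg over the whole table, and a call needed both an adjusted p under 0.05 and a 2-fold difference. The fit was also run on simulated data. There the control was given the same spread as the hexenal arrays, so that assumption was not tested. Names, annotated types and gene order came from the RefSeq table, which matched 29976 loci. Coordinates and sequences are not shown.

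The members and lists were chosen with earlier results of these data known. Members are named where they have the 5 lowest or 5 highest mean differences among those whose 3 hexenal arrays all lay to one side of the control. Up to 3 loci with the largest mean differences are named from each other list, kept where the table bears out the name, and all 6 codes of the organelle RNA list are given. ABCI4, ABCI5, AT2G07725, AT2G07727, AT2G07787 and the members with the narrowest and widest spread were chosen after their values were seen. Alternatives were no further normalization, median centring, cyclic loess, quantile normalization on nuclear loci, eBayes with trend and robust, the dimmest 25% or 50% of loci dropped, 16 added before the log, no fold threshold, and each hexenal replicate left out.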

Additional observations from a re-analysis of the deposited data

How the results depend on the processing

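Over the 9 alternatives of normalization, filter and test, the median mean difference of the mitochondria-encoded loci stayed between -0.58 and -0.55, and 77 to 80 of 94 lay below the control on all 3 arrays. Leaving out a hexenal replicate gave medians from -0.71 to -0.36 and from 80 to 88 members below the control on every remaining hexenal array. No member was called by limma under any of the 12 alternatives (lowest adjusted p 0.124). Members at an unadjusted p under 0.05 numbered 3 without the dimmest 50% of loci and 15 with eBayes with trend and robust, and from 0 to 30 when a replicate was left out. The 30 came without hexenal replicate 3, when 19.2% of all loci had such a p. Calls over all loci, 273, became 480 and 628 without the dimmest 50% of loci and with trend and robust, and ran from 0 (without hexenal replicate 2) to 388 when a replicate was left out. The median of the chloroplast-encoded loci, -0.15, was -0.14 as deposited, -0.17 with median centring and -0.11 with cyclic loess, and from -0.145 to -0.139 with a replicate left out. Without hexenal replicate 1 the medians came to -0.49 for the pseudogenes, -0.30 for the loci within the insertion and -0.29 for the code range on chromosome 2. ATMG00830 ran from -0.055 (without hexenal replicate 2) to 0.30 when a replicate was left out. The causes of these shifts were not tested. Medians by class of mitochondrial gene were not run, since no code was paired with a name. No paired analysis was possible because the control carries no replicate number. With 1 control array, no spread between control samples can be given, and signal over background is unknown.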
